A study of Homo sapiens with 6 samples.

Results

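The dual-specificity MAP kinase phosphatases are 10 genes here, DUSP1, DUSP2, DUSP3, DUSP4, DUSP5, DUSP6, DUSP7, DUSP8, DUSP10 and DUSP16, taken by symbol from a table of 23344 human genes. Each symbol had 1 row, so 10 of 23344 rows are described. The cells were Huh7, an established human liver cancer line, in serum-containing medium. RNA was sequenced from cells that received a control lentivirus (labelled shNC, 3 libraries) and from cells that received a VersicanV1 knockdown lentivirus (labelled sh2, 3 libraries). Versican is a chondroitin sulfate proteoglycan that cells secrete into their matrix, and V1 is one of its isoforms. The labels name 1 hairpin, 1 cell line and no time after infection, so all groups share the line, the medium and exposure to virus. The series' title places versican V1 upstream of EGFR, PI3K and AKT, which share receptor inputs with the MAP kinases.

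MAP kinases are switched on when a threonine and a tyrosine in their activation loop are phosphorylated, and dual-specificity phosphatases remove both phosphates. Several of these phosphatase genes are themselves switched on by MAP kinase signalling and by stress, so that their transcripts serve as negative feedback and as a readout of recent signalling. DUSP1, DUSP2, DUSP4 and DUSP5 encode inducible nuclear enzymes, DUSP6 and DUSP7 cytoplasmic enzymes that prefer ERK, and DUSP8, DUSP10 and DUSP16 enzymes that prefer JNK and p38. DUSP3 encodes a small atypical phosphatase that lacks the kinase-binding domain of the others. What was measured is transcript, which says nothing of how active the phosphatases or the kinases were.

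Promoter sequences are shown first because DUSP1 rose in the knockdown libraries, and DUSP8 and DUSP10 were high in knockdown replicates 2 and 3. DUSP3 and DUSP16 were also highest in those libraries. Their windows and the second DUSP10 start were searched but are not printed. The sequences come from RefSeq on GRCh38.p14, and 8 of the 10 members were searched (9 transcript starts, with 2 for DUSP10). DUSP5 had no entry in the promoter set, and DUSP4 was left out of the search. Each line gives the 250 bases before the transcript start, 5′ to 3′ on the minus strand, from which each of these genes is transcribed. Capitals mark TGACG on either strand, the short core of the cAMP response element, and its full palindrome TGACGTCA.
DUSP1, chr5:172771196-172771445: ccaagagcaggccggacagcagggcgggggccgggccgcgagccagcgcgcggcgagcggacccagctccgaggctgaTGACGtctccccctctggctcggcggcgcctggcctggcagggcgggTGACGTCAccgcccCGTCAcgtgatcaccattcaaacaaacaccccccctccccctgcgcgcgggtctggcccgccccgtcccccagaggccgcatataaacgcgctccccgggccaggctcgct
DUSP8, chr11:1572272-1572521: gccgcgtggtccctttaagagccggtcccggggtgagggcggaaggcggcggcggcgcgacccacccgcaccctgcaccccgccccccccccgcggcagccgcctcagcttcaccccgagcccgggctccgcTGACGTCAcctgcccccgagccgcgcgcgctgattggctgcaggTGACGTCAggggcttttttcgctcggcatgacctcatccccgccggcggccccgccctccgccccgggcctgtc
DUSP10, chr1:221742090-221742339: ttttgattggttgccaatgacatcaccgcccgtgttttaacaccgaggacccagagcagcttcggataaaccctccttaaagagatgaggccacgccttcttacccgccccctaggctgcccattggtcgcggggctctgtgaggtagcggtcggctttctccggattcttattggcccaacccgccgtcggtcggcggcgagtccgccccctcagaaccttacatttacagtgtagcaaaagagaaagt

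The full element TGACGTCA was found in 2 of the 8 members. DUSP1 had it once, 125 to 118 bases before the start, and DUSP8 had it at 2 places, 118 to 111 and 74 to 67 bases before the start. Of 35116 RefSeq windows of the same length, 578 (1.65%) held it, and 19 (0.0541%) held it at 2 or more places. The short core TGACG, which lies within each full element, was in 21.2% of all windows. Outside the full elements it was found at 2 further places in DUSP1 and at 1 in DUSP3. An E-box (CACGTG, in 6.34% of all windows) was found in DUSP1 and DUSP2, where the one in DUSP1 overlaps a short core. The GC box (GGGCGG, both strands, in 42.6% of all windows) was found in all members searched except DUSP6. Searches on both strands for the AP-1 element (TGANTCA), the ETS motif CCGGAA, the kappaB consensus and the CArG box found none in these windows. Of all windows 6.57%, 14.5%, 5.21% and 1.16% held them. The ETS search covered CCGGAA alone, and the shorter GGAA, which occurs in the DUSP8 window shown, was not counted. A match describes the letters of the window and is not shown to be a bound site.

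**Figure D1:**
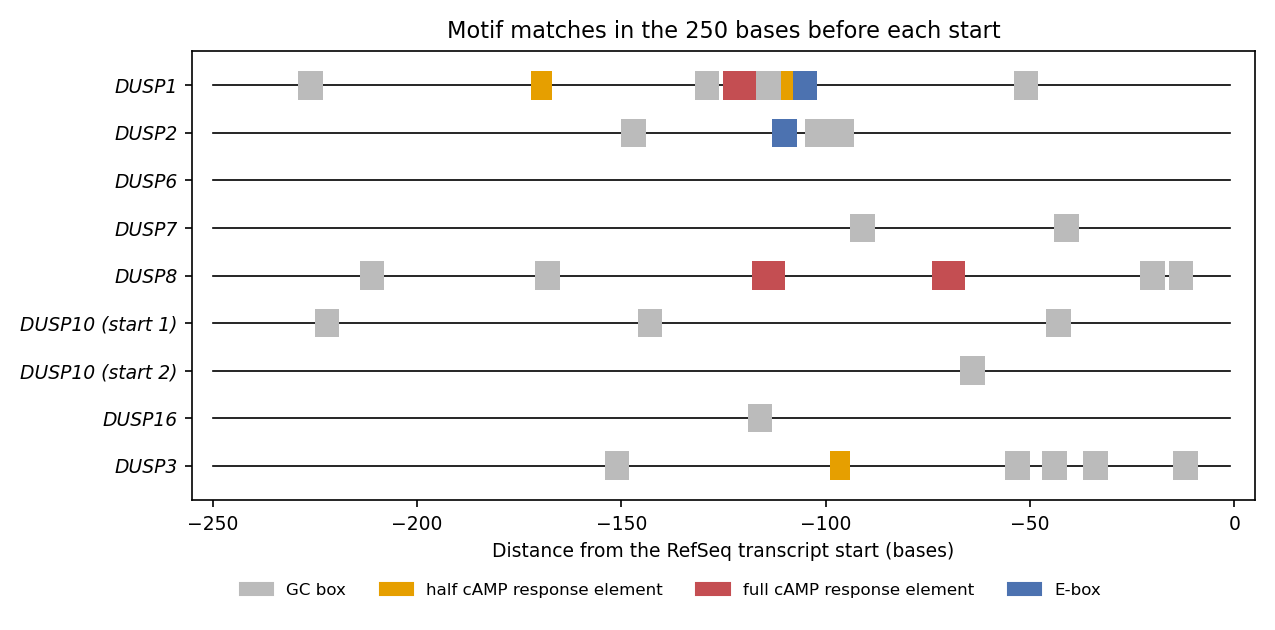
Motif matches in the 250 bases before each RefSeq transcript start of the 8 members searched. The x axis gives the distance from the start in bases, with 1 row per start. Each block is a match on either strand. DUSP8 holds the full cAMP response element at 2 places and DUSP1 at 1 place, and the DUSP10 and DUSP16 windows hold GC boxes alone among the motifs drawn.

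Values are treated as FPKM, fragments scaled to transcript length and library total, so levels may be compared between genes. Library totals were between 851418 and 975501. Read numbers are unknown, and from low values the libraries' depth was estimated at 0.911 to 1 of the deepest one. The estimate leaves out values below 0.1. That shared cutoff can by itself bring the estimates close, so they do not show that the depths were alike. VCAN, the versican gene, checked the labels: it was listed at 4.79, 6.24 and 8.10 in control replicates 1, 2 and 3 and at 1.90, 1.74 and 1.64 in knockdown replicates 1, 2 and 3, for all isoforms together. The 9 hepatocyte markers were detected in every library, with ALB at 3128.03 or more, but their levels did not all stay alike. FGB and APOA1 rose and TTR fell (limma adjusted p-values of 0.0188, 0.0325 and 0.0077), where 8.08% of all genes tested were called. The other 6 did not pass, ALB among them (limma adjusted p = 0.303). The summed level of 13 leukocyte and blood markers was 206.42 in knockdown replicate 2, 109.65 and 108.83 in knockdown replicates 1 and 3, and 76.55 to 92.56 in control libraries. Of these markers 4 were tested, and the rest did not pass the filter on low values. Of the 4 tested 1 rose, where 4.15% of all genes tested did. That gene was LYZ, the lysozyme gene (limma adjusted p = 0.0277). LYZ was listed at 18.30, 24.72 and 24.84 FPKM in control and at 44.53, 68.21 and 37.79 in knockdown replicates 1, 2 and 3. CD14 was at 45.64 to 70.15 in control and at 57.06, 72.51 and 65.23 in knockdown replicates 1, 2 and 3. LYZ and CD14 together made up most of the sum in every library. Transcripts of the 15 mitochondrially encoded genes took 16.0% to 19.2% of the total in control libraries and 23.8%, 27.0% and 31.2% in knockdown replicates 1, 2 and 3. In bulk RNA a change in the share of cells that express a gene and a change in RNA per cell cannot be told apart.

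In control cells the level order was led by DUSP1 at 96.2 ± 12.2 FPKM (SD, n = 3) and DUSP3 at 49.5 ± 7.19. DUSP4 followed at 18.4 ± 0.997 and DUSP10 at 8.58 ± 0.268, and none of these neighbours overlapped in their library ranges. DUSP16, DUSP5, DUSP6, DUSP8 and DUSP7 came next at means of 6.02, 5.92, 5.02, 3.85 and 2.47, and each of these overlapped its neighbour. DUSP2 was last at a mean of 0.0133. In knockdown cells DUSP1 and DUSP3 again led at 177 ± 36.9 and 67.3 ± 10.6. They were followed by DUSP5, DUSP10, DUSP4, DUSP8, DUSP16 and DUSP6, each overlapping its neighbour, with DUSP7 and DUSP2 last. DUSP5 thus went from the sixth to the third place in the order.

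**Figure D2:**
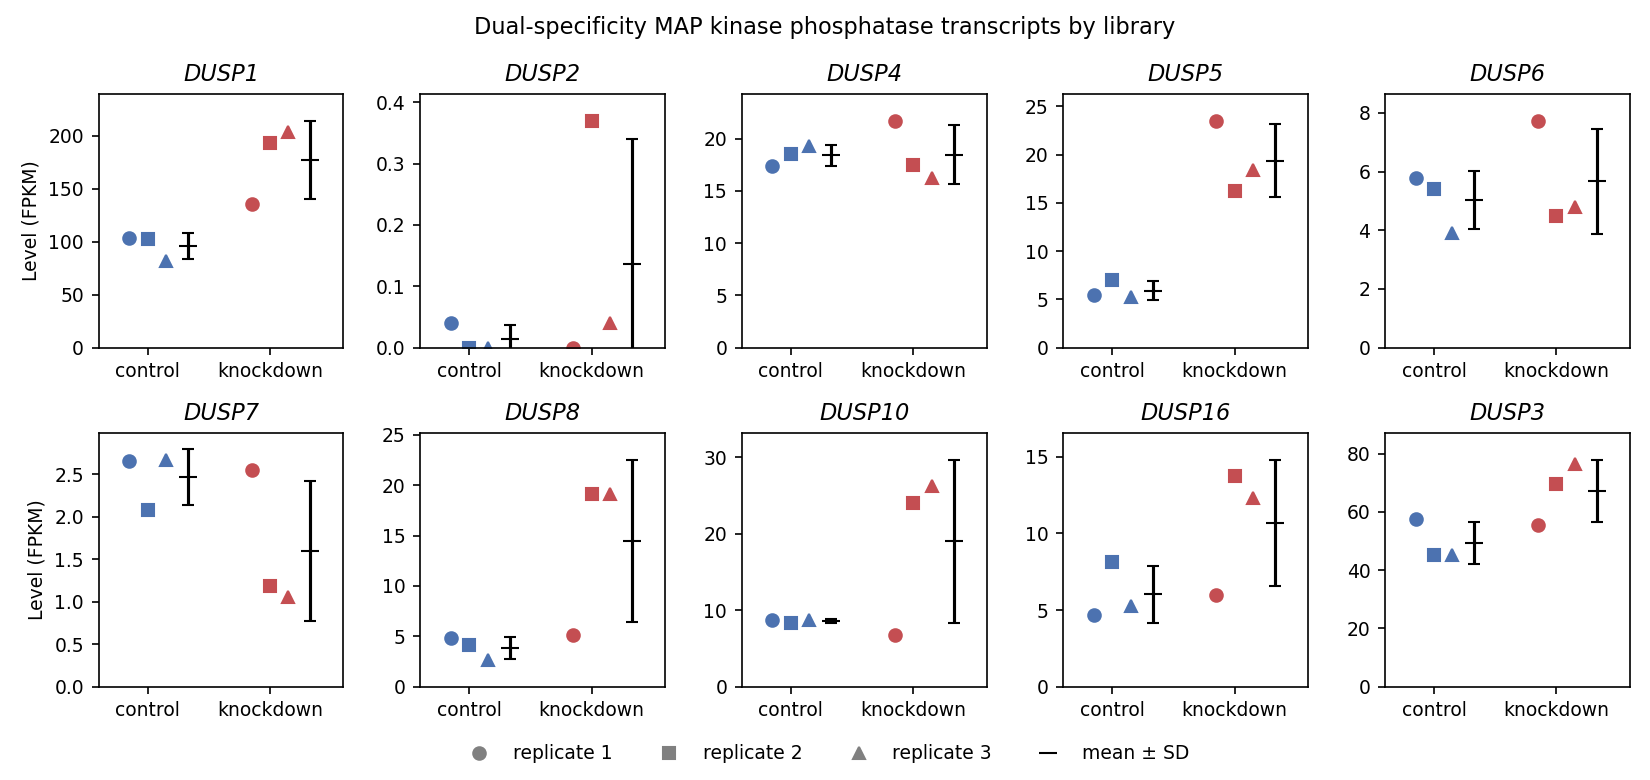
Level of each of the 10 members in FPKM (y axis from 0, a scale per panel) in control (blue) and knockdown (red) libraries; the symbol gives the replicate number and the black mark the mean with its SD (n = 3). For DUSP5 and DUSP1 all red points lie above all blue ones, and DUSP8, DUSP10 and DUSP16 have knockdown replicate 1 near the controls and replicates 2 and 3 well above.

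Of the 10 members, 9 passed the filter on low values (1 FPKM or more in at least 3 libraries), and 2 of these 9 rose and 0 fell in the knockdown libraries. A gene is said to have risen or fallen where limma gave a Benjamini-Hochberg adjusted p below 0.05 over the 13696 genes tested. At an unadjusted limma p below 0.05 there were 5 of the 9 higher and 0 lower, where 13.4% of all genes tested were higher and 16% lower at that threshold. Over all genes tested 8.08% were called, 4.15% as higher in knockdown. The median log2 fold change of the 9 was 0.69, against -0.029 over all genes tested. The groups did not overlap for 3 of the 9 (DUSP1, DUSP5 and DUSP8, all higher in knockdown), where 33.1% of all genes tested had groups that did not overlap and 14.4% did so with the knockdown higher. The count of called members moved with knockdown replicate 1: without it 6 members (DUSP1, DUSP3, DUSP5, DUSP8, DUSP10 and DUSP16) were called higher and DUSP7 lower, where 24.5% of all genes tested were called, 11.7% as higher. Without any other single library DUSP5 alone was called, where 1.23%, 0.414% and 1.81% of all genes were called on leaving out control replicates 1, 2 and 3, and 0.83% and 1.45% on leaving out knockdown replicates 2 and 3. Nothing in the labels says that the 3 libraries of a group were separate cultures, so the p-values reflect a spread that may be technical only.

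DUSP5 (ENSG00000138166), a nuclear phosphatase that dephosphorylates ERK and holds it in the nucleus, had the smallest p of the members. It was listed at 5.48, 7.02 and 5.25 FPKM in control replicates 1, 2 and 3 and at 23.52, 16.20 and 18.43 in knockdown replicates 1, 2 and 3. The groups were far apart, and the highest value was in knockdown replicate 1. The knockdown mean was 3.28 times the control mean. On the log2(FPKM + 1) scale DUSP5 rose by 1.55 (SE 0.17, 95% interval 1.16 to 1.94, limma adjusted p = 0.00702). It passed in all of the 12 alternative settings tried, with log2 fold changes from 1.41 to 1.69. Its pseudogene DUSP5P1 has a row of its own, at 0.38 to 1.01 FPKM over the 6 libraries, and how reads were divided between the 2 is not known.

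DUSP1 (ENSG00000120129), an immediate early gene whose enzyme acts on p38, JNK and ERK, was listed at 103.57, 102.98 and 82.15 FPKM in control replicates 1, 2 and 3. In knockdown replicates 1, 2 and 3 it was listed at 135.26, 193.54 and 203.58. All knockdown values lay above all control values, with replicate 1 the lowest of them. The knockdown mean was 1.84 times the control mean, and DUSP1 rose by 0.86 (SE 0.17, 95% interval 0.47 to 1.26, limma adjusted p = 0.0274). The call was lost in 7 of 12 alternatives. The adjusted p of DUSP1 was 0.0682, 0.0911 and 0.0774 on leaving out control replicates 1, 2 and 3, and 0.0917 and 0.0784 on leaving out knockdown replicates 2 and 3. It was 0.0722 when all expressed genes were fitted and 0.0504 with the replicate number as a block. Over the 12 alternatives it ranged from 0.00154 to 0.0917, and the log2 fold change from 0.75 to 1.04.

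DUSP4 (ENSG00000120875), the third inducible nuclear member, was listed at 17.33, 18.53 and 19.31 FPKM in control and at 21.70, 17.47 and 16.24 in knockdown replicates 1, 2 and 3. The knockdown values lay on both sides of the controls. The log2 fold change was -0.0028 (95% interval -0.32 to 0.31, limma adjusted p = 0.992), and its sign turned between settings. Within each library DUSP1 was 5.98, 5.56 and 4.25 times DUSP4 in control replicates 1, 2 and 3 and 6.23, 11.1 and 12.5 times DUSP4 in knockdown replicates 1, 2 and 3. The groups did not overlap in this ratio, though only narrowly, at 5.98 against 6.23. A two-sided exact permutation test gave p = 0.1, the smallest p that 3 libraries against 3 allow. Once the groups are apart the test can give no other p.

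DUSP2 (ENSG00000158050), known as a phosphatase of activated lymphocytes, did not pass the filter. It was listed at 0.04, 0 and 0 FPKM in control and at 0, 0.37 and 0.04 in knockdown replicates 1, 2 and 3. The one value above 0.04 was in knockdown replicate 2. In that library the leukocyte markers PTPRC, NKG7 and S100A8 were listed at 1.96, 5.54 and 17.90, against at most 0.16, 0.1 and 0 in the other libraries; 0 of the 13 markers found were at 0 there, and 5 or 6 in each other library. The part of these transcripts in the DUSP2 value was not tested.

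DUSP6 (ENSG00000139318), the cytoplasmic ERK phosphatase often read as a marker of ERK output, was listed at 5.77, 5.39 and 3.91 FPKM in control replicates 1, 2 and 3. In knockdown replicates 1, 2 and 3 it was listed at 7.73, 4.50 and 4.78. The groups overlapped, and knockdown replicate 1 was the highest. The log2 fold change was 0.13 (95% interval -0.36 to 0.62, limma adjusted p = 0.731), which leaves room for a change of either sign. It was -0.08 without knockdown replicate 1 and -0.012 without control replicate 3. DUSP5, which also acts on ERK but in the nucleus, was 0.95, 1.30 and 1.34 times DUSP6 in control and 3.04, 3.60 and 3.86 times DUSP6 in knockdown replicates 1, 2 and 3. The groups did not overlap in that ratio either (exact permutation p = 0.1, two-sided, and adjusted p = 0.1 over the 2 ratios tested). Each of the 2 ratios sets a member that rose over one that did not pass. The separation of the groups in them therefore restates those calls and is no further evidence.

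DUSP7 (ENSG00000164086), the second cytoplasmic ERK phosphatase among the members, was listed at 2.65, 2.08 and 2.67 FPKM in control and at 2.55, 1.19 and 1.05 in knockdown replicates 1, 2 and 3. Knockdown replicate 1 lay among the controls and the other 2 below them. The log2 fold change was -0.46 (95% interval -0.99 to 0.07, limma adjusted p = 0.231). Without knockdown replicate 1 it was -0.71 with an adjusted p = 0.0247. Another cytoplasmic phosphatase of ERK, DUSP9, is no member of the set and was chosen after its values were seen. It was listed at 239.57, 232.81 and 209.02 FPKM in control and at 126.68, 153.20 and 115.97 in knockdown replicates 1, 2 and 3, so its level lay above that of DUSP1 in control but not in knockdown means. DUSP9 fell (log2 fold change -0.79, SE 0.13, limma adjusted p = 0.0162), and it passed in 9 of 12 alternatives, with an adjusted p of up to 0.0790.

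The 3 phosphatases that prefer JNK and p38 had a common layout over the libraries, and none passed the test. Each had a value 0.790 to 1.34 times the control mean in knockdown replicate 1. In knockdown replicates 2 and 3 the values were 2.05 to 4.97 times the control mean. The layout was not particular to them. DUSP1 and DUSP3 also had their lowest knockdown value in replicate 1, at 1.41 and 1.13 times the control mean. Of 7175 genes, 385 had a Pearson correlation above 0.9 with DUSP8 over the 6 libraries. DUSP8 (ENSG00000184545) was listed at 4.8, 4.15 and 2.60 FPKM in control and at 5.15, 19.15 and 19.10 in knockdown replicates 1, 2 and 3. The lowest knockdown value was close to the highest control value. The log2 fold change was 1.51 (SE 0.44, 95% interval 0.52 to 2.51, limma adjusted p = 0.0669), a size like that of DUSP5 with a standard error more than 2 times as large. Rows of the DUSP8 pseudogenes DUSP8P3 and DUSP8P5 were at 0 to 0.36 FPKM, and how reads were divided among these copies is not known.

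DUSP10 (ENSG00000143507) was listed at 8.79, 8.28 and 8.68 FPKM in control replicates 1, 2 and 3. In knockdown replicates 1, 2 and 3 it was listed at 6.78, 24.08 and 26.25. Replicate 1 was thus below every control and replicates 2 and 3 above. On the log2 scale the groups differed by 0.87 (SE 0.42, 95% interval -0.11 to 1.84, limma adjusted p = 0.217).

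DUSP16 (ENSG00000111266) was listed at 4.65, 8.13 and 5.27 FPKM in control and at 5.99, 13.73 and 12.32 in knockdown replicates 1, 2 and 3. Replicate 1 was inside the control range. DUSP16 differed by 0.69 on the log2 scale (SE 0.30, 95% interval 0.02 to 1.37, limma adjusted p = 0.161). With the replicate number as a block the adjusted p was 0.0739.

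Without knockdown replicate 1 the log2 fold changes of DUSP8, DUSP10 and DUSP16 were 2.08, 1.45 and 1.03, with limma adjusted p-values of 0.000594, 0.000328 and 0.00965. This setting called 24.5% of all genes tested. DUSP3 and DUSP7 also passed only in this setting among the 12 alternatives. VCAN was at 1.90 FPKM in knockdown replicate 1 and at 1.74 and 1.64 in replicates 2 and 3, all below the lowest control value of 4.79. The summed leukocyte and blood markers were at 109.65, 206.42 and 108.83 FPKM in knockdown replicates 1, 2 and 3, above the controls in each. Most of each sum was CD14 and LYZ, which the control libraries also held. PTPRC, NKG7 and S100A8 were at 0.13, 0 and 0 in knockdown replicate 1 and at 0.06, 0 and 0 in replicate 3. In replicate 2 they were at 1.96, 5.54 and 17.90. The part of leukocyte and blood transcripts in the levels of DUSP8, DUSP10 and DUSP16 was not tested. The share of mitochondrially encoded transcripts was 23.8% in knockdown replicate 1 and higher in replicates 2 and 3. When each library was rescaled without those genes the log2 fold changes of DUSP8, DUSP10 and DUSP16 were 1.61, 0.97 and 0.79 with all libraries kept.

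DUSP3 (ENSG00000108861), which can act on ERK and JNK, was listed at 57.75, 45.38 and 45.23 FPKM in control and at 55.66, 69.75 and 76.51 in knockdown replicates 1, 2 and 3. The groups overlapped through control replicate 1 and knockdown replicate 1. The log2 fold change was 0.43 (SE 0.15, 95% interval 0.08 to 0.79, limma adjusted p = 0.109). Without knockdown replicate 1 it was 0.56 with an adjusted p = 0.0180.

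**Figure D3:**
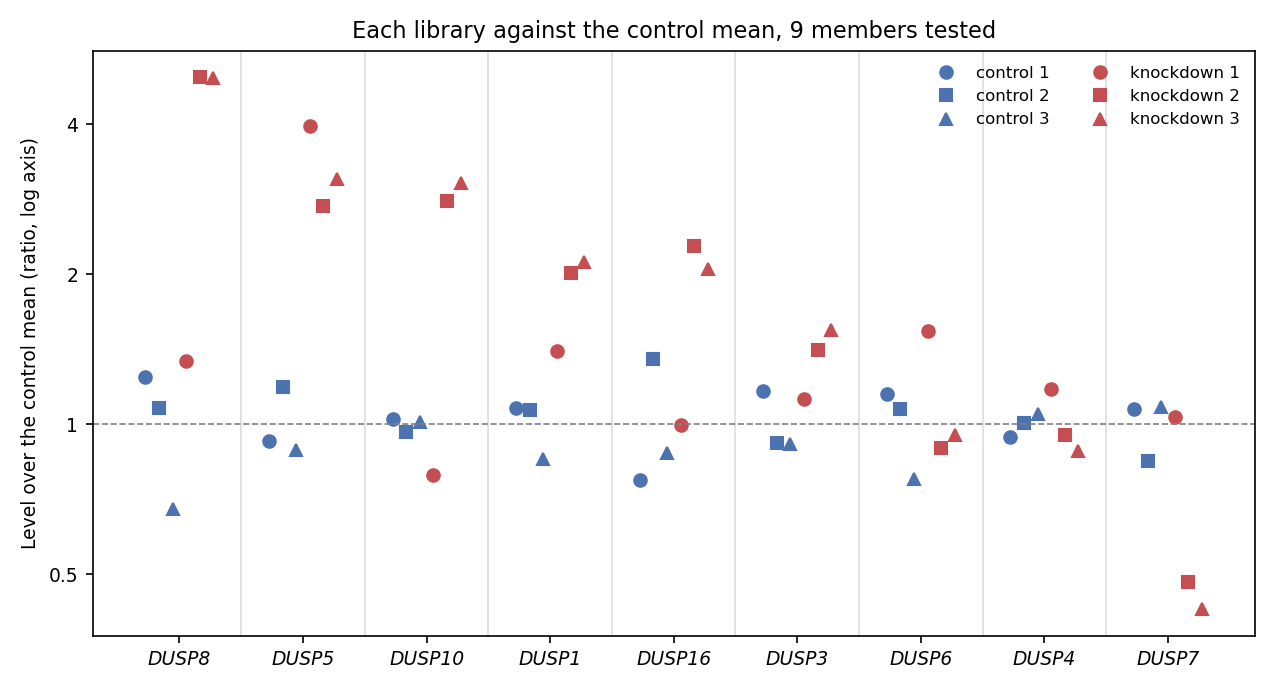
Level of the 9 members tested in each library over the mean of the 3 control libraries, as a ratio on a log axis, ordered by the ratio of group means; blue is control and red is knockdown, with the symbol for the replicate. For DUSP8, DUSP10 and DUSP16 the red circle (knockdown replicate 1) lies at 1.34, 0.790 and 0.996 times the control mean, while for DUSP5 it is the highest point at 3.98 times.

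Summed over the 10 members, the level was 210.83, 201.94 and 175.07 FPKM in control and 264.34, 359.98 and 378.30 in knockdown replicates 1, 2 and 3. The 4 inducible nuclear members, mostly DUSP1, made up 60.0% to 63.6% of this sum in control and 63.0% to 68.3% in knockdown libraries. The 3 JNK and p38 phosphatases made up 8.65% to 10.2% in control, and 6.78%, 15.8% and 15.2% in knockdown replicates 1, 2 and 3. DUSP6 and DUSP7 together were at 6.58 to 8.42 FPKM in control and at 10.28, 5.69 and 5.83 in knockdown replicates 1, 2 and 3. Knockdown replicate 1 was thus the lowest of its group in the JNK and p38 sum and the highest in the sum of DUSP6 and DUSP7. DUSP9, no member of the set, is left out of all these sums. It was at 209.02 to 239.57 FPKM in control and at 126.68, 153.20 and 115.97 in knockdown replicates 1, 2 and 3. Its control mean of 227 was above that of the 10 members together (196), so the sums do not describe all phosphatases of ERK.

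**Figure D4:**
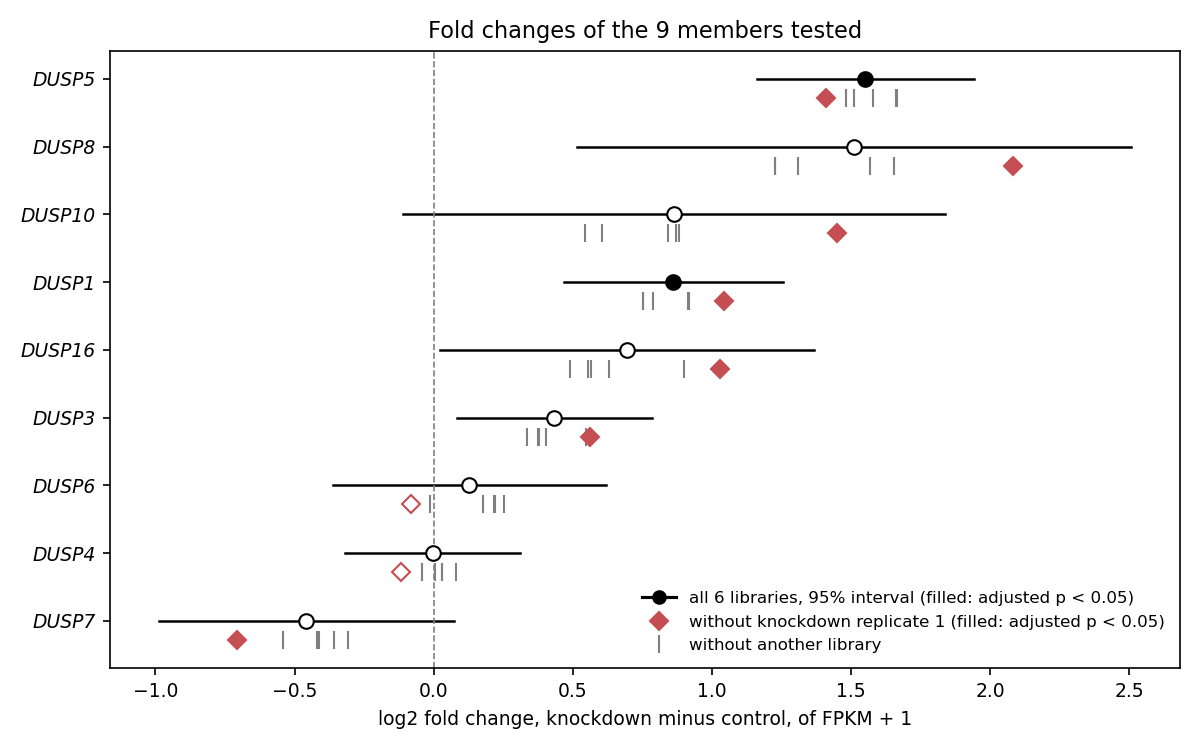
Log2 fold change (knockdown minus control, of FPKM + 1) of the 9 members tested, with the 95% interval from limma over all 6 libraries (black), the value without knockdown replicate 1 (red diamond) and the values without each other library (grey ticks); filled symbols have an adjusted p below 0.05. With all libraries DUSP5 and DUSP1 are filled, and without knockdown replicate 1 all but DUSP4 and DUSP6 are.

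Kinases that these phosphatases act on were measured in the same libraries. MAPK3, which encodes ERK1, had a log2 fold change of -0.43 and did not pass the test (limma adjusted p = 0.190). Of 14 genes of the RAS-RAF-MEK-ERK core 0 rose and 0 fell, with a median of -0.18, while 2 were lower and 0 higher at an unadjusted limma p below 0.05, where 16% of all genes tested were lower and 13.4% higher. Without knockdown replicate 1, 4 of these 14 were called, where 24.5% of all genes tested were. MAPK9, which encodes the JNK2 kinase, was listed at 18.44, 20.40 and 18.83 FPKM in control and at 13.31, 13.83 and 13.48 in knockdown replicates 1, 2 and 3. The groups were apart and MAPK9 fell (-0.47, SE 0.11, limma adjusted p = 0.0418), a call held in 3 of 12 alternatives with an adjusted p of up to 0.152. Log2 fold changes were -0.18 for MAPK8 (JNK1) and -0.13 for MAPK14 (p38 alpha), and neither passed (limma adjusted p-values of 0.541 and 0.594). MAPK9 was the 1 gene called of 12 tested in the JNK and p38 core, where 8.08% of all genes tested were called. The median of the 12 was -0.15, with 1 higher and 1 lower at an unadjusted limma p below 0.05. Of the 2 genes of the ERK5 branch 0 were called, with 1 higher and 1 lower at an unadjusted limma p below 0.05.

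Among 14 genes that ERK signalling induces outside the DUSP family, 3 rose and 0 fell, where 8.08% of all genes tested were called, 4.15% as higher. The median of the 14 was 0.39 against -0.029 over all genes tested. MYC, a growth-promoting transcription factor gene, went from 19.2 ± 5.80 to 37.4 ± 3.97 FPKM (SD, n = 3) and rose by 0.97 (limma adjusted p = 0.0351). SPRY2, a feedback inhibitor of receptor tyrosine kinase signalling, went from 4.55 ± 0.431 to 8.09 ± 0.893 (0.71, limma adjusted p = 0.0279). PHLDA1 went from 6.15 ± 0.935 to 10.7 ± 1.02 (0.72, limma adjusted p = 0.0307). SPRY2 and PHLDA1 each passed in 5 of 12 alternatives and MYC in 4, with limma adjusted p-values of up to 0.107. The count of called genes in this list was 7 without knockdown replicate 1, where 24.5% of all genes tested were called. It was 0 without any other single library, where 0.414% to 1.81% of all genes were called. At an unadjusted limma p below 0.05 there were 8 of the 14 higher and 1 lower, where 13.4% and 16% of all genes tested were. Besides the 3 that rose, the higher ones were FOSL1, IER3, EPHA2, EGR1 and FOS, named after their values were seen, at log2 fold changes of 1.61, 0.39, 0.38, 0.84 and 0.73 and limma adjusted p-values of 0.0725 to 0.161; the lower one was ETV5. ETV4 and ETV5, ETS-family factors induced by ERK and also named after their values were seen, did not pass either, at log2 fold changes of -0.90 and -0.75 (limma adjusted p-values of 0.197 and 0.126). Their 2 lowest values were in knockdown replicates 2 and 3, at 8.06 and 4.72 FPKM for ETV4 and 2.40 and 1.82 for ETV5, as they were for DUSP7.

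Of 12 tested regulators of DUSP transcription and mRNA, 3 rose and 0 fell, with a median of 0.001. Over all genes tested 8.08% were called, 4.15% as higher. At an unadjusted limma p below 0.05, 4 of the 12 were higher and 2 lower, where 13.4% and 16% of all genes tested were. ETS2 and ETS1, transcription factors that act downstream of ERK, went from 8.15 ± 1.01 to 24.8 ± 2.10 FPKM and from 1.49 ± 0.543 to 5.57 ± 0.701 (SD, n = 3). They rose by 1.499 (SE 0.14, limma adjusted p = 0.00403) and 1.41 (SE 0.19, limma adjusted p = 0.0103), and both passed in all 12 alternatives. In knockdown replicate 1 they were at 22.39 and 6.29, so that library lay with the other knockdown libraries for ETS1 and ETS2 as for DUSP5. ZFP36, an RNA-binding protein that speeds the decay of AU-rich transcripts such as DUSP1, was listed at 23.67, 21.77 and 25.70 in control and at 34.30, 44.15 and 46.88 in knockdown replicates 1, 2 and 3. It rose by 0.78 (SE 0.14, limma adjusted p = 0.0218), with its lowest knockdown value in replicate 1 as for DUSP1, and passed in 6 of 12 alternatives with an adjusted p of up to 0.0968. Of 8 tested atypical dual-specificity phosphatases outside the members and 7 other phosphatases that act on MAP kinases, 0 rose and 0 fell in limma, with medians of -0.10 and 0.08. At an unadjusted p below 0.05 there were 0 of the 8, and 1 higher and 1 lower of the 7.

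**Figure D5:**
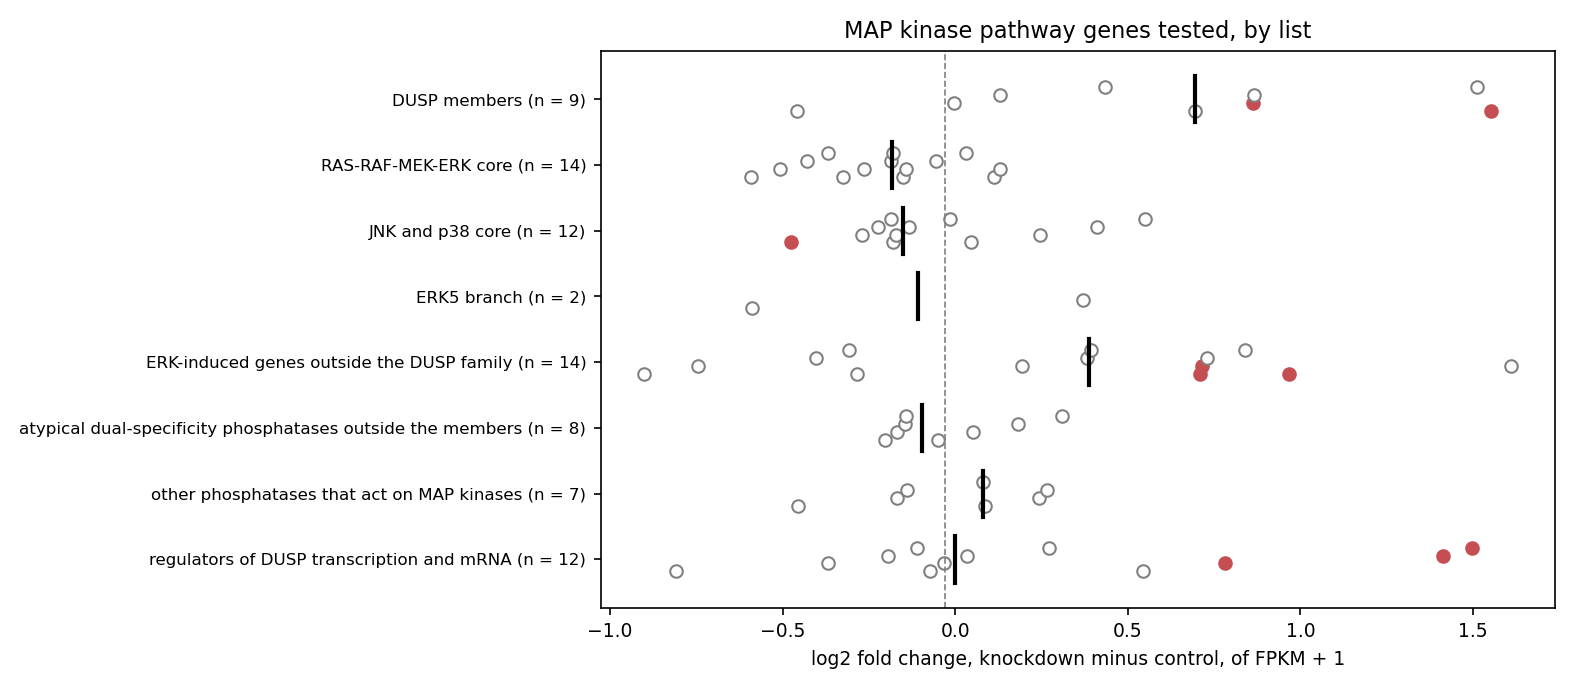
Log2 fold change (knockdown minus control, of FPKM + 1) of each gene tested in the members and in 7 lists of MAP kinase pathway genes; red points have an adjusted p below 0.05, the black bar is the list's median, and the dashed line is the median of all genes tested (-0.029). The members' median of 0.69 lies to the right of the other lists' medians, which run from -0.18 to 0.39.

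The genes whose levels followed DUSP5, DUSP1 and DUSP8 most closely over the 6 libraries were taken from 7175 genes with a mean log2 value of at least 3. With 6 libraries in 2 groups, any large group difference gives a high correlation, so these are descriptions without a test. For DUSP5 they were ERRFI1, an inhibitor of EGFR (Pearson r = 0.992), the stress cytokine gene GDF15 (r = 0.988) and the protease inhibitor gene SLPI (r = 0.986). Like DUSP5, all 3 had their highest value in knockdown replicate 1, GDF15 at 288.87 FPKM against 133.17 and 150.15 in replicates 2 and 3. For DUSP1 they were the chemokine gene CXCL3 (r = 0.996), RCE1, a protease of prenylated proteins (r = 0.994), and TICAM1, an adaptor of toll-like receptors (r = 0.993). CXCL3 was listed at 30.34, 59.64 and 80.81 FPKM in knockdown replicates 1, 2 and 3 and at 11.52 to 18.28 in control. For DUSP8 they were SMTN, a cytoskeletal protein gene (r = 0.997), the small GTPase gene RHOB (r = 0.995) and IRGQ (r = 0.992). RHOB was listed at 77.46 FPKM in knockdown replicate 1 and at 167.59 and 187.51 in replicates 2 and 3, against 51.52 to 66.35 in control. Of the 7175 genes, 165, 388 and 385 had an r above 0.9 with DUSP5, DUSP1 and DUSP8.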

How the data were processed

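Total RNA of Huh7 cells was made into TruSeq libraries, per the labels' protocols. The authors deposited 1 table with 1 column per library; its values were treated as FPKM made by the authors. No unit stands in the file, and TPM over part of the genes cannot be told apart from FPKM. Among the tools in the submitters' processing notes are the aligner Bowtie2 2.2.6 and the quantifier RSEM 1.1.17, with no step given for any. The build named there is mm10, of mouse, while the gene IDs are human, so no coordinates are taken from that build. Libraries were grouped by title.

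Genes at 1 or more in at least 3 libraries were kept, and log2(FPKM + 1) was fitted by group with limma 3.58.1 in R 4.3.3 (trend, robust moderation, two-sided, Benjamini-Hochberg over all genes tested). Fold changes on this scale understate those of low genes. The fit was tested on simulated data with known changes. The simulated noise was independent between genes and libraries, so effects shared by many genes of a library were not covered. An exact 0 can be a failed estimate. Depth was gauged from genes with a single transcript of 500 to 3000 bases in GENCODE release 29. Promoter windows of 250 bases came, with their coordinates, from RefSeq on GRCh38.p14.

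The members and lists were chosen with earlier results of these data known. Genes were named by rule: the members, VCAN, up to 4 called genes per pathway list, kinases that the members act on, and the 3 genes most like each of the 3 members with the smallest p, leaving out clone and pseudogene names. DUSP9, ETV4, ETV5, FOSL1, IER3, EPHA2, EGR1, FOS, the pseudogenes and single markers were named outside it. One gene that the rule names is not reported here. Alternative settings were 0.1 as pseudocount, all genes above 0 kept, quantile normalization, a rescaling without mitochondrially encoded genes, the replicate number as a block, moderation without trend and not robust, and leaving out each library in turn.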

Additional observations from a re-analysis of the deposited data

How the results depend on the processing

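Of 13696 genes tested 1107 changed, 568 higher and 539 lower. The count was 221 of 23339 with no filter on low values and 727 of 13696 with moderation without trend and not robust. When a library was left out the count ran from 56 of 13511 to 3284 of 13408. With the rescaling without mitochondrially encoded genes it was 680 higher and 223 lower. Of the 9 members tested 2 changed; the count was 1 with no filter on low values, 1 with the replicate block, and from 1 to 7 when a library was left out, highest without knockdown replicate 1. The cause was not tested. Values that changed sign were small: DUSP4 was at 0.011 with quantile normalization, 0.10 with the rescaling and -0.12 to 0.08 without single libraries, DUSP6 at -0.082 to 0.25 and MAPK8 at -0.35 to 0.010. Whether the replicate numbers paired the libraries was not settled. Same-numbered libraries had correlations of 0.053, 0.105 and 0.135 between their deviations from the group means. Differently numbered ones had correlations from -0.210 to 0.094. Control replicates 2 and 3 correlated best with the same-numbered knockdown libraries, and control replicate 1 with knockdown replicate 3 (0.080). With the replicate block 861 genes changed, and of the members DUSP5 passed (adjusted p = 0.0301) while DUSP1 did not (adjusted p = 0.0504). Read totals are unknown, so no counting error is given, and values as low as those of DUSP2 may rest on few reads.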
